A study of Homo sapiens with 18 samples.

Results

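The regions described here are the ChIP-seq peaks that lie at 10 interferon-stimulated genes in NB4 cells, an established human line of acute promyelocytic leukemia. The genes were ISG15, IFI6, IFI44L, IFI44, IFIT1, IFIT2, IFIT3, OAS1, OAS2 and MX1, and they were given as 6 stretches of hg19: ISG15 at chr1:948847-949920, IFI6 at chr1:27992572-27998724, IFI44L to IFI44 at chr1:79086088-79129763, IFIT2 to IFIT1 at chr10:91061706-91178000, OAS1 to OAS2 at chr12:113344739-113449528 and MX1 at chr21:42792520-42831141. Each stretch was widened by 5 kb at both ends, and every peak that overlapped such a window by at least 1 bp was taken. Peaks of the 6 libraries of a mark that overlapped were merged into 1 region, and 38 of 110980 merged regions lay in the windows: 11 of 27037 for H3K4me3, 13 of 36947 for H3K27ac and 14 of 46996 for H3K9me3. The rule for the regions used positions and no measured value, but the genes were picked with earlier results of these data known.

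The cells were either not treated or grown with 10 µM maltonis, a synthetic compound derived from maltol, for 24 h. Each of the 3 histone marks was immunoselected from 3 biological replicates of both conditions, so that 18 libraries fell into 6 groups. The cells are 1 line, so the replicates are separate samples of the same line and not separate donors. H3K4me3 lists held 15841 to 17755 peaks per library, without read counts, so they do not give the depth behind an H3K4me3 value. The study reports that, for each mark, its samples had comparable numbers of mapped reads. H3K27ac lists held 32024 to 36288 peaks with 17974940 to 20773316 reads in them, and H3K9me3 lists held 29432 to 35171 peaks with 2595814 to 3366296 reads. H3K9me3 values therefore rest on far fewer reads. No gene annotation of hg19 was used, so the promyelocytic identity of the cells was not checked on marker genes and other interferon-stimulated genes were not analysed here.

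Interferon-stimulated genes encode the antiviral proteins that cells make when type I interferon binds its receptor. Many of their promoters hold a short sequence through which the interferon signal acts, the interferon-stimulated response element (ISRE). ISG15 encodes a ubiquitin-like protein that is attached to other proteins, the IFIT proteins bind foreign RNA, the OAS enzymes make oligoadenylates that activate RNase L, and MX1 encodes a GTPase that blocks virus replication. H3K4me3 marks active or poised promoters, H3K27ac marks active promoters and enhancers, and H3K9me3 marks silent chromatin.

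The element was searched as GAAA, any 2 bases and GAAA again, and for the other strand as TTTC, any 2 bases and TTTC, with overlapping matches counted, in promoter windows of RefSeq (build GRCh38.p14) that run from 250 bases before to 50 bases after a gene start. Of 35116 such windows 3.57% held it, and of the 27305 genes listed there 4.38% had at least 1 window with it. The table held 8 of the 10 genes, and 7 of these 8 had a window with the element; IFIT2 and OAS2 had no entry. The stretches of 250 bases before the start are shown for 3 genes whose chromatin is followed through the results, for IFI44L, which had no peak of either active mark, and for OAS1, whose window held no match, with matches in capitals.
ISG15, chr1:1013247-1013496, plus strand: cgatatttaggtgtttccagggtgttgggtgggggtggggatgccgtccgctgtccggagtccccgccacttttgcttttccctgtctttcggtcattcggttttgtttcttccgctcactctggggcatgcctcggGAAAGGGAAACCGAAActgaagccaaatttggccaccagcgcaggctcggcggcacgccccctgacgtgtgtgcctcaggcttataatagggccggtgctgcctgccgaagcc
IFIT1, chr10:89392373-89392622, plus strand: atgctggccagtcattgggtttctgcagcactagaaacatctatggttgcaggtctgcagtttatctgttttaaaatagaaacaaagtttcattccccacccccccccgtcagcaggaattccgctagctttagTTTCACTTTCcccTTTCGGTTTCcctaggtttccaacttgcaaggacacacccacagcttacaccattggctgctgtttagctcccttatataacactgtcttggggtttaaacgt
IFIT3, chr10:89327747-89327996, plus strand: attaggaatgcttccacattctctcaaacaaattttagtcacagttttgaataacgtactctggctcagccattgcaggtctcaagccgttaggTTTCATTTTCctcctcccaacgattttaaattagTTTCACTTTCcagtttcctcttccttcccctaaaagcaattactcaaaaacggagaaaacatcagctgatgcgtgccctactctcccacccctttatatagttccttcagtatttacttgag
OAS1, chr12:112906712-112906961, plus strand: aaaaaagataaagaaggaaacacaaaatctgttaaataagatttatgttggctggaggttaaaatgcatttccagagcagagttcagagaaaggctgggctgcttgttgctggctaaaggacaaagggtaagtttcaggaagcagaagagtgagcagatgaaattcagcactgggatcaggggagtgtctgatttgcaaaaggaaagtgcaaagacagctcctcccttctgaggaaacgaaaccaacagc
IFI44L, chr1:78620198-78620447, plus strand: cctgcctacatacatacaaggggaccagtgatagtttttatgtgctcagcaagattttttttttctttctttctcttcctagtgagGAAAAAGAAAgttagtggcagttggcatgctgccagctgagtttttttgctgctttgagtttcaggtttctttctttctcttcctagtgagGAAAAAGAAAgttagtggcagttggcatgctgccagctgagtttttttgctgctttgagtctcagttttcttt
In ISG15 and IFIT1 the pair of matches ended 93 to 106 bases before the start. They overlapped in ISG15 and lay 3 bases apart in IFIT1. IFIT3 has another start in the table, whose window held 2 matches as well. IFI6 held 3 matches, and MX1, with 3 starts in the table, held 1 match just after its first start, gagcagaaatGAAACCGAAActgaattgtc, and 1 before the third. OAS3, the neighbour of OAS1 inside the OAS window, also held 2 matches. A match is a description of these letters and no evidence of binding, and its absence at OAS1 says only that these letters are not in that window.

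IFI44L and IFI44, neighbours on chromosome 1, had no H3K4me3 and no H3K27ac peak in any of the 12 libraries of those marks, treated or not. The other 5 windows had both marks at the start of the locus in all 6 libraries of each mark. Of the 11 H3K4me3 regions 9 were called in all 6 libraries, of the 13 H3K27ac regions 12 and of the 14 H3K9me3 regions 3, where over all regions 46.1%, 54.2% and 30.3% were. Only these could be fitted. The 9 H3K4me3 regions each overlapped 1 of the 12 H3K27ac regions. Only at the 5' end of a locus does the stretch itself place a gene start. Other regions are named by their distance from that start, with the gene that the RefSeq order of genes puts near it, which is no annotation of this build: in the IFIT locus the order is IFIT2, IFIT3, a pseudogene, IFIT1B, IFIT1 and IFIT5, and in the OAS locus OAS1, OAS3 and OAS2.

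H3K27ac rose at the ISG15 start, in 4 of the 6 regions of the IFIT locus and at the OAS3 position, and no region of the windows was called lower. A region counted as changed when its adjusted p (quasi-likelihood test of edgeR, adjusted by the Benjamini-Hochberg method over 20018 regions) was at most 0.01 and its log2 fold change at least 0.58 in size. Of 12 regions 6 rose and 0 fell, where 8.18% of all regions tested rose and 19.2% fell. The median log2 fold change was 0.64 in the windows and -0.01 over all regions. 9 of the 12 overlapped H3K4me3, and all 6 that rose were among these 9. Among the 10814 H3K27ac regions that overlapped an H3K4me3 region called in all 6 libraries 9.31% rose and 8.93% fell, with a median of 0.16. At an unadjusted p under 0.05, 11 of the 12 regions passed, against 70.5% of all regions, and with an adjusted p of at most 0.05 and no fold limit 10 rose and 1 fell, against 34% and 33.7% of all regions. Without any test, reads were higher in every treated than in every untreated library in 8 of the 12 regions, against 29% of all regions, and lower in 1, against 35.8%.

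At the ISG15 start the H3K27ac region (chr1:946201-952600) held 445, 484 and 484 reads in the untreated libraries and 656, 705 and 710 in the maltonis-treated ones. Every treated library was above every untreated library. The log2 fold change was 0.60 ± 0.06 (SE, n = 3 per condition; edgeR, adjusted p = 2.34e-05). This region lay just past the fold limit. It was no longer called without untreated replicate 1, maltonis replicate 1 or maltonis replicate 3, where its log2 fold changes were 0.56 to 0.58. Nor was it called when scaling factors were taken from regions with H3K4me3, with 0.44, or with a length offset scaled on reads per base, with 0.51. A weaker region downstream (chr1:953601-957600) held 148, 168 and 184 reads in untreated and 122, 114 and 58 in treated libraries, so the groups did not overlap in the opposite direction. Its log2 fold change was -0.72 ± 0.26 and it did not pass (edgeR, adjusted p = 0.0332). It passed as lower under DESeq2 and without maltonis replicate 1.

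**Figure D1:**
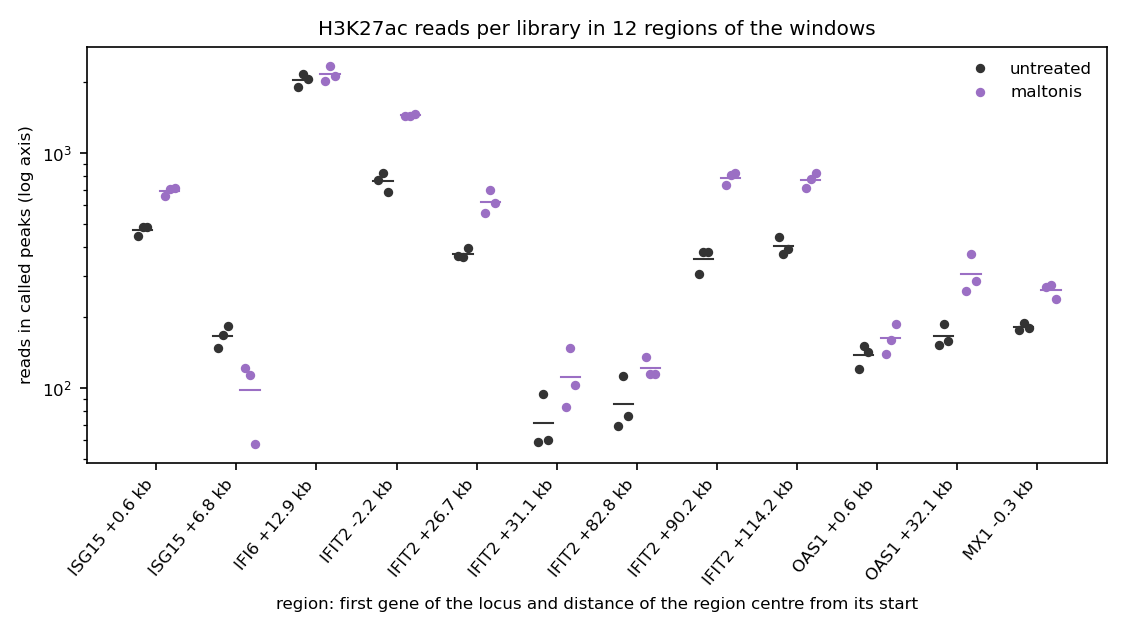
Reads in H3K27ac peaks (vertical axis, log scale) of each library in the 12 regions called in all 6 libraries, with untreated libraries in black and maltonis-treated libraries in lilac and a line at each group's mean. In 8 of the 12 regions all treated libraries lie above all untreated ones, and in 1 region, downstream of ISG15, they lie below.

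The IFIT genes stand in a row on chromosome 10, and the region over the IFIT2 start (chr10:91052801-91066200) was the strongest of the cluster in reads. It held 767, 824 and 686 reads in untreated and 1434, 1444 and 1468 in treated libraries. The groups were far apart, with a log2 fold change of 0.98 ± 0.07 (edgeR, adjusted p = 2.67e-06). The region 26.7 kb from the IFIT2 start, at the position of IFIT3, held 364, 360 and 393 reads in untreated and 554, 699 and 611 in treated libraries, a log2 fold change of 0.78 ± 0.07 (edgeR, adjusted p = 1.17e-05). Here too the lowest treated library exceeded the highest untreated one.

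At 90.2 kb from the IFIT2 start, near IFIT1 and its neighbour IFIT1B, lay the H3K27ac region with the largest change in the windows (chr10:91147201-91156600). Its reads were 307, 381 and 378 in untreated and 735, 805 and 822 in treated libraries, and its log2 fold change of 1.19 ± 0.08 was at percentile 99.1 of all regions tested (edgeR, adjusted p = 1.48e-06). The last region of the cluster, 114 kb from the IFIT2 start and by gene order at IFIT5, held 441, 372 and 390 reads in untreated and 710, 778 and 821 in treated libraries, with a log2 fold change of 0.98 ± 0.09 (edgeR, adjusted p = 9.92e-06). A pair of weaker regions between these, 31.1 and 82.8 kb from the IFIT2 start, had log2 fold changes of 0.68 ± 0.24 and 0.56 ± 0.22 and did not pass (edgeR, adjusted p = 0.0296 and 0.0445). They held 59 to 148 and 69 to 136 reads per library, and their errors were larger than those of the stronger regions.

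A deposited count covers only the bases that a library's own peak spans, and in part of the IFIT cluster that length differed between the groups as well. The IFIT3-position region spanned 3000, 2600 and 3000 bp in untreated and 3600, 5000 and 4000 bp in treated libraries. The 90.2 kb region spanned 3800, 5000 and 4600 bp in untreated and 8600, 6600 and 8600 bp in treated libraries. In both regions the treated peaks were longer in every library, which 3.84% of all H3K27ac regions showed. With the called length as an offset the IFIT3-position, 90.2 kb and 114 kb regions no longer passed, and their log2 fold changes were 0.24, 0.38 and 0.53, while the median over all regions moved to 0.16. With that offset scaled on reads per base, which left the median over all regions at 0.00, the 3 values were 0.08, 0.22 and 0.37. Reads per kb of peak were higher in all treated than in all untreated libraries in 7 of the 12 regions, against 25.5% of all regions. At the OAS3 position and at the IFIT2 start the called lengths overlapped between groups, and these regions passed with either form of the length offset.

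**Figure D2:**
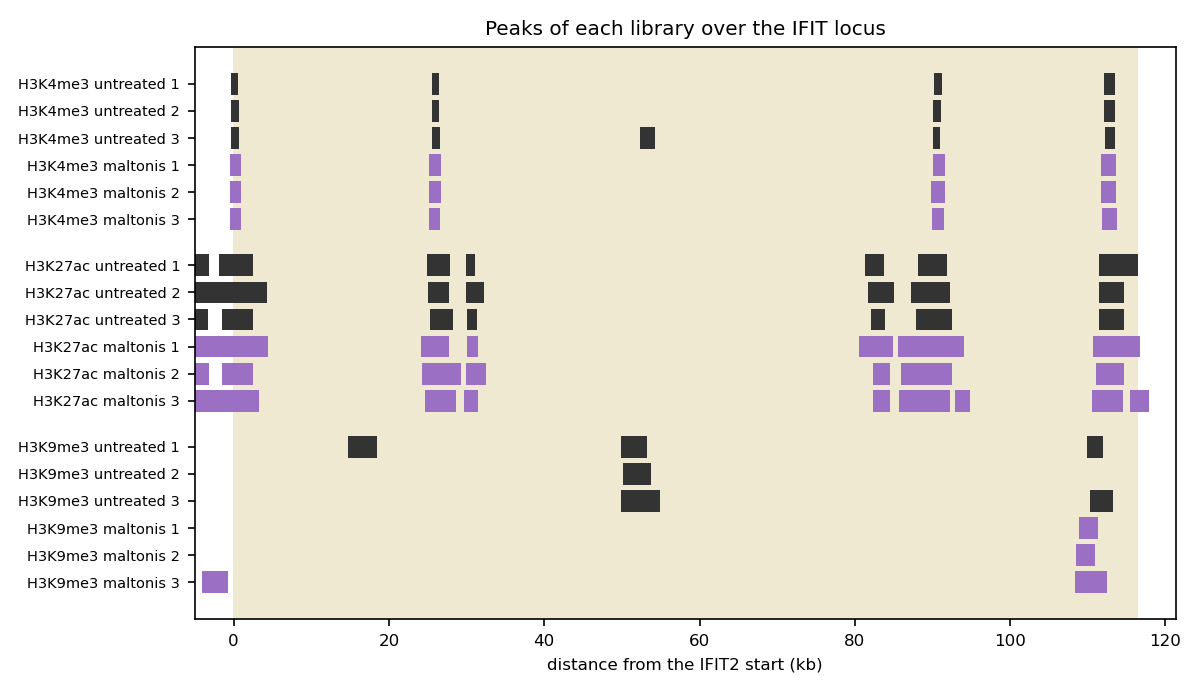
Peaks of each of the 18 libraries over the IFIT locus (bars, 1 row per library, untreated in black, maltonis-treated in lilac) by distance from the IFIT2 start in kb, with the stretch given for the locus shaded and peaks cut off at the window's ends. The H3K4me3 bars are wider in the treated libraries at all 4 shared positions, the H3K27ac bar at 90.2 kb is longer, and the H3K9me3 bar near 52.4 kb is seen in the 3 untreated libraries and in none of the treated ones.

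In the OAS locus 1 of the H3K27ac regions passed. At the OAS1 start H3K27ac reads were 121, 151 and 142 in untreated and 140, 161 and 187 in treated libraries. The groups overlapped, and the log2 fold change of 0.28 ± 0.16 did not pass (edgeR, adjusted p = 0.148). At 32.1 kb from the OAS1 start, by gene order at OAS3, reads were 152, 187 and 159 in untreated and 258, 374 and 286 in treated libraries, a log2 fold change of 0.92 ± 0.14 (edgeR, adjusted p = 0.000323). The deposited island score of this region was 160 to 236 in untreated and 1252 to 1356 in treated libraries. Such scores did not follow the reads closely. At the MX1 start untreated replicates 1 and 2 had 177 and 190 reads but scores of 1141 and 233. The size of the rise in score is therefore no measure of the change in H3K27ac. The remaining OAS region, 71.6 kb from the OAS1 start, was called in 1 untreated and 1 treated library, with 66 and 57 reads. By gene order OAS2 lies beyond the OAS3 position. There no H3K4me3 or H3K27ac region of the window was called in more than 1 library of a condition, so neither mark could be compared at OAS2. Whether OAS1 and the OAS3 position differed in their response was not tested.

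The H3K27ac regions at MX1 and IFI6 were not called. At the MX1 start reads were 177, 190 and 180 in untreated and 269, 275 and 239 in treated libraries. All treated libraries were above all untreated ones, yet the log2 fold change of 0.56 ± 0.13 stopped just below the fold limit (edgeR, adjusted p = 0.00341). Without untreated replicate 2 or maltonis replicate 3 it passed, and with the length offset that scales on reads per base it was -0.04. IFI6, which encodes a small membrane protein induced by interferon, lay in a merged region of 31600 bp that reached far beyond the window, with 1907 to 2175 reads in untreated and 2027 to 2352 in treated libraries. Its log2 fold change was 0.13 ± 0.04 (edgeR, adjusted p = 0.0123), and it was -0.03 when factors were taken from regions with H3K4me3. The single peak over the IFI6 start held 221 reads in 2800 bp and 426 reads in 7400 bp in untreated replicates 1 and 3, and 389, 481 and 373 reads in 3400 to 4800 bp in the treated libraries. In untreated replicate 2 it was part of a peak of 23200 bp, so the start alone could not be compared.

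H3K4me3 peaks at these genes were wider after maltonis, as were most H3K4me3 peaks of the cells, and few stood out from that. In 8 of the 9 regions every treated library was wider than every untreated one, where 54.8% of all 12470 regions tested were. The median log2 change of width was 0.40 in the windows and 0.19 over all regions. By the same limits of adjusted p and fold (limma on log2 width) 2 of 9 regions were called wider and 0 narrower, against 3.79% and 0.281% of all regions. Both lay in the IFIT cluster. At an adjusted p of at most 0.05 without a fold limit 7 were wider, against 40.1%, and 0 narrower, against 1.76%.

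At the IFIT3 position, 25.9 kb from the IFIT2 start, the H3K4me3 peak measured 910, 896 and 930 bp in untreated and 1583, 1598 and 1492 bp in treated libraries. The untreated libraries were close to each other and the treated peaks were about 1.71 times as wide, a log2 change of 0.77 ± 0.06 (limma, adjusted p = 0.000842). At 90.7 kb, near IFIT1 and IFIT1B, widths were 1014, 989 and 883 bp in untreated and 1601, 1762 and 1522 bp in treated libraries, a log2 change of 0.76 ± 0.09 (limma, adjusted p = 0.00225). When each library was centred on its median width the log2 changes of these regions were 0.54 and 0.53. Both were under the fold limit and neither was called, where 89 of all 12470 regions were then called wider. The 90.7 kb region was also lost without maltonis replicate 1 or maltonis replicate 2, with log2 changes of 0.77 and 0.70 (limma, adjusted p = 0.01002 and 0.01016).

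The IFIT2 start and the IFIT5 position widened by log2 0.52 ± 0.08 and 0.53 ± 0.04, past the limit on p but short of the fold limit (limma, adjusted p = 0.00606 and 0.00086). Widths at IFIT2 were 946, 978 and 1117 bp in untreated and 1390, 1482 and 1490 bp in treated libraries. Those at the IFIT5 position were 1336, 1400 and 1311 bp and then 1953, 1935 and 1934 bp. At both, the groups did not overlap. ISG15, IFI6, MX1 and the OAS3 position had smaller log2 changes of 0.23 to 0.40 and none was called. OAS1 was the exception, with 970, 574 and 1135 bp in untreated and 380, 923 and 580 bp in treated libraries. These groups overlapped, and the log2 change of -0.55 ± 0.41 did not pass (limma, adjusted p = 0.322).

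**Figure D3:**
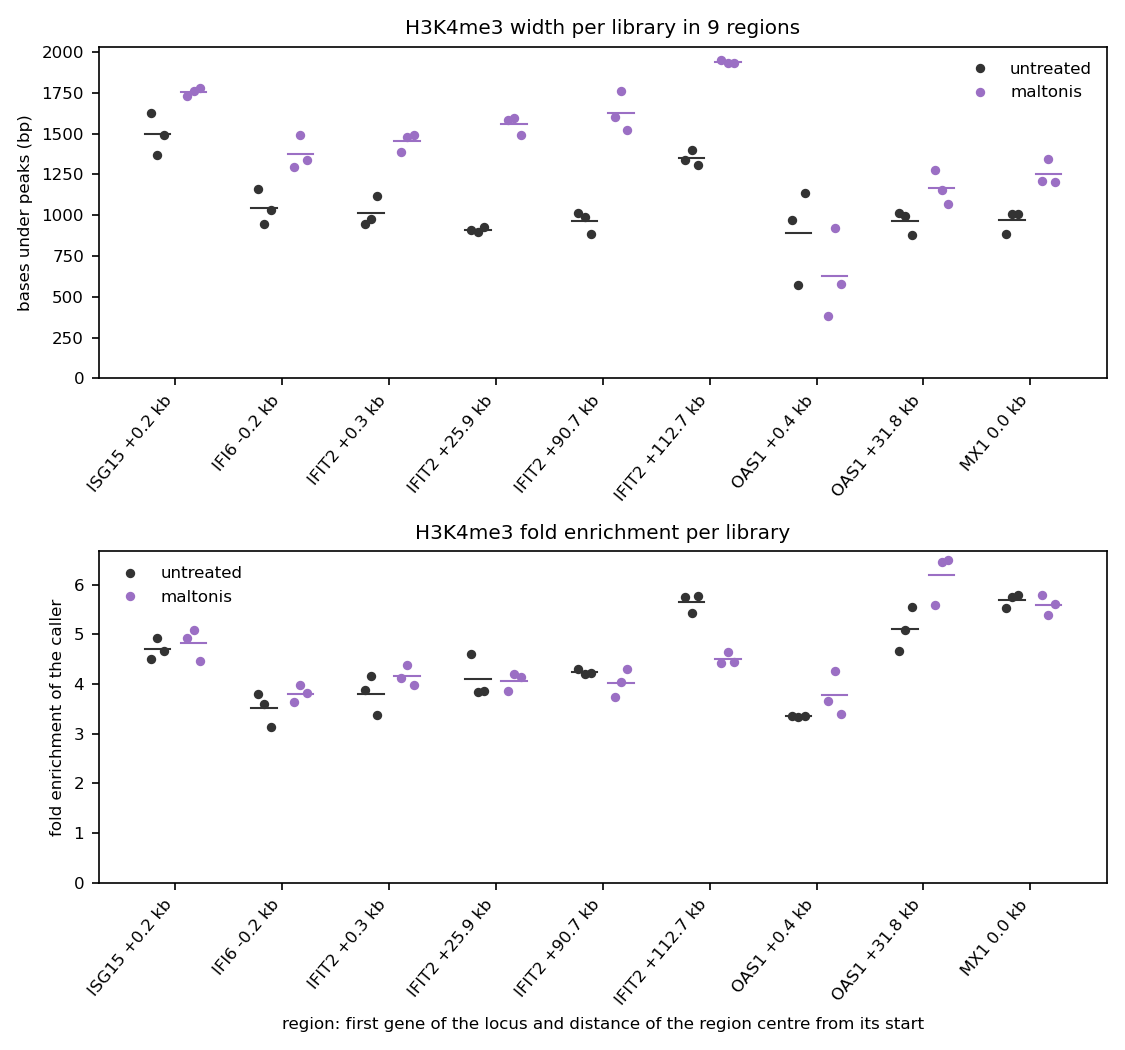
Bases under H3K4me3 peaks (upper panel) and the caller's highest fold enrichment (lower panel) of each library in the 9 regions called in all 6 libraries, untreated in black and maltonis-treated in lilac, with a line at each group's mean. Widths of treated libraries lie above those of untreated libraries in 8 regions, while fold enrichments overlap in 6 of the 9.

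The height of the H3K4me3 peaks moved by less than the fold limit. MACS2 gives each peak a fold enrichment over background, and after centring each library on its median 0 of 9 regions passed in either direction (limma, same limits), against 0.441% higher and 0.481% lower of all regions. At an unadjusted p under 0.05, 7 of 9 passed, against 41.7% of all regions, and at an adjusted p of at most 0.05 without a fold limit 5 were higher and 1 lower, where 14% and 13.5% of all regions were. The median log2 change was 0.19 in the windows and 0.02 over all regions. The largest change was at the OAS3 position, with fold enrichments of 4.66, 5.08 and 5.55 in untreated and 5.59, 6.46 and 6.50 in treated libraries. It reached a log2 change of 0.44 ± 0.08, at percentile 98.4 of all regions tested (limma, adjusted p = 0.0101). The -log10 q of this peak was 13.5, 15.9 and 19.4 in untreated and 33.0, 48.5 and 40.8 in treated libraries. It was higher in every treated library, as it was in 9.03% of all regions. The same held at ISG15, the IFIT2 start and MX1, while in the other regions of this set the -log10 q of the groups overlapped.

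The IFIT5 position went the other way in height. Its fold enrichment was 5.75, 5.42 and 5.76 in untreated and 4.41, 4.64 and 4.45 in treated libraries, so it fell as its width grew, although 52.8% of all regions had uncentred values that were lower in every treated library and 5.24% had values that were higher, as OAS1 and the OAS3 position did. After centring the log2 change was -0.17 ± 0.04 (limma, adjusted p = 0.0282), which did not pass. ISG15, IFI6, IFIT2 and OAS1 had log2 changes of 0.19 to 0.32. The 25.9 kb and 90.7 kb IFIT regions and MX1 had 0.15, 0.08 and 0.13, and these 3 turned to -0.01, -0.08 and -0.02 without centring, which moved the median of all regions to -0.14. The H3K4me3 regions outside this set, 53.3 kb from the IFIT2 start and 86.0 kb from the OAS1 start, were each called in 1 untreated library at the weak end of its list, with -log10 q of 1.07 and 1.27.

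**Figure D4:**
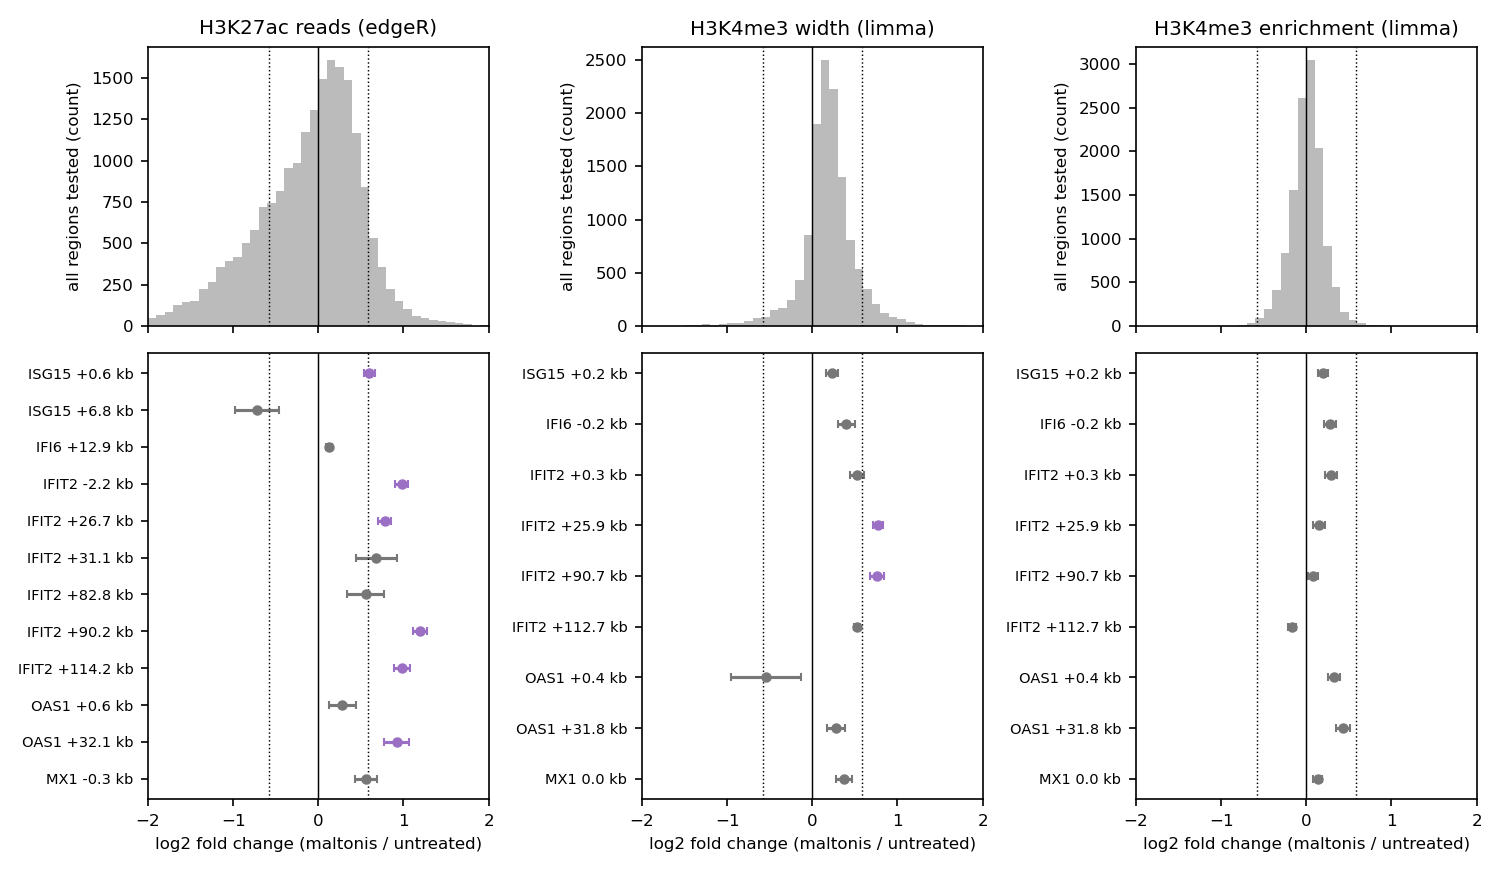
Log2 fold change of maltonis-treated over untreated libraries for H3K27ac reads, H3K4me3 width and H3K4me3 fold enrichment, as a histogram over all regions tested (upper row) and for each region of the windows with its SE (lower row). Lilac points passed both limits, grey points did not, and dotted lines mark the fold limit of 0.58 in either direction. The horizontal axes stop at 2 in either direction. The IFIT regions and the OAS3 position lie to the right in the H3K27ac panel, while the H3K4me3 width of all regions is itself shifted to the right.

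H3K9me3 was sparse in the windows, and 7 of its 14 regions lay in the OAS locus. ISG15 had no H3K9me3 peak in any library, and the starts of the 6 loci were not covered by any H3K9me3 region. Of the 3 regions called in all 6 libraries none passed, where 0.253% of all regions rose and 0.0141% fell (edgeR; with DESeq2 0 passed as well). At an unadjusted p under 0.05 none passed either, against 14.1% of all regions. Their log2 fold changes were -0.24 ± 0.22 beyond IFI6, where the region overlapped the window through 1 treated library only, and 0.53 ± 0.29 and 0.27 ± 0.29 at 6.26 and 54.0 kb from the OAS1 start. Beyond IFI6 the reads were 109, 109 and 114 in untreated and 84, 83 and 91 in treated libraries. They were lower in every treated library, as in 15% of all regions. The value at 6.26 kb was -0.39 with the called length as an offset. The change of 0.53 had an adjusted p of 0.457 (edgeR). With such errors a change at the fold limit, or somewhat above it, could also go uncalled at this depth.

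A pair of H3K9me3 regions was called in all untreated and no treated libraries, which 2.32% of all H3K9me3 regions were. The first lay inside the IFI44L to IFI44 stretch, 25.8 kb from the IFI44L start (chr1:79108201-79115600), with 41, 45 and 52 reads in the untreated libraries. The merged region was a chain of peaks at shifted positions: that of untreated replicate 1 shared 200 bp with that of replicate 2 and 1600 bp with that of replicate 3, and those of replicates 2 and 3 shared 0 bp. No other H3K9me3 peak lay in that window, whose covered length was 2400, 3600 and 3200 bp in untreated and 0 bp in all treated libraries. The second lay 52.4 kb from the IFIT2 start (chr10:91111601-91116600), with 56, 56 and 76 reads. Both were modest peaks at percentiles 2.11 to 63.9 of their lists by score, and a peak that is not called can still hold reads under the caller's limit, so the level in treated cells is not known. That limit was not the same in all lists. The lowest H3K9me3 score was 28.8 to 28.9 in untreated and 33.6, 32.7 and 28.8 in treated libraries. The IFI44L to IFI44 peak of untreated replicate 2 scored 29.3, under the lowest score of treated replicates 1 and 2.

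At 2 positions with H3K4me3 and H3K27ac an H3K9me3 region was called in all treated libraries, a difference in calls that was not tested. The H3K9me3 region at the OAS3 position (chr12:113373201-113380400), whose peaks overlapped those of both other marks in each treated replicate of the same number, was called in 1 untreated library with 38 reads and in 3 treated libraries with 90, 56 and 56 reads. At the IFIT5 position the H3K9me3 region (chr10:91170001-91175000) was called in 2 untreated libraries with 31 and 37 reads and in 3 treated libraries with 53, 47 and 66 reads. There the overlap with H3K4me3 was one of merged regions, since the H3K9me3 peaks of maltonis replicates 1 and 2 ended before the H3K4me3 peaks of the same numbers began. The H3K9me3 peak of maltonis replicate 2 also ended before the H3K27ac peak of the same number. Regions called in more treated than untreated libraries made up 6 of the 14 in the windows, against 20.9% of all, and those called in fewer 4 of 14, against 39.5%. Of the other H3K9me3 regions, those at 22.1, 77.4 and 103 kb from the OAS1 start were called in 2 to 3 libraries of each condition, and 4 were called in 1 library only. None of these calls was tested.

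**Figure D5:**
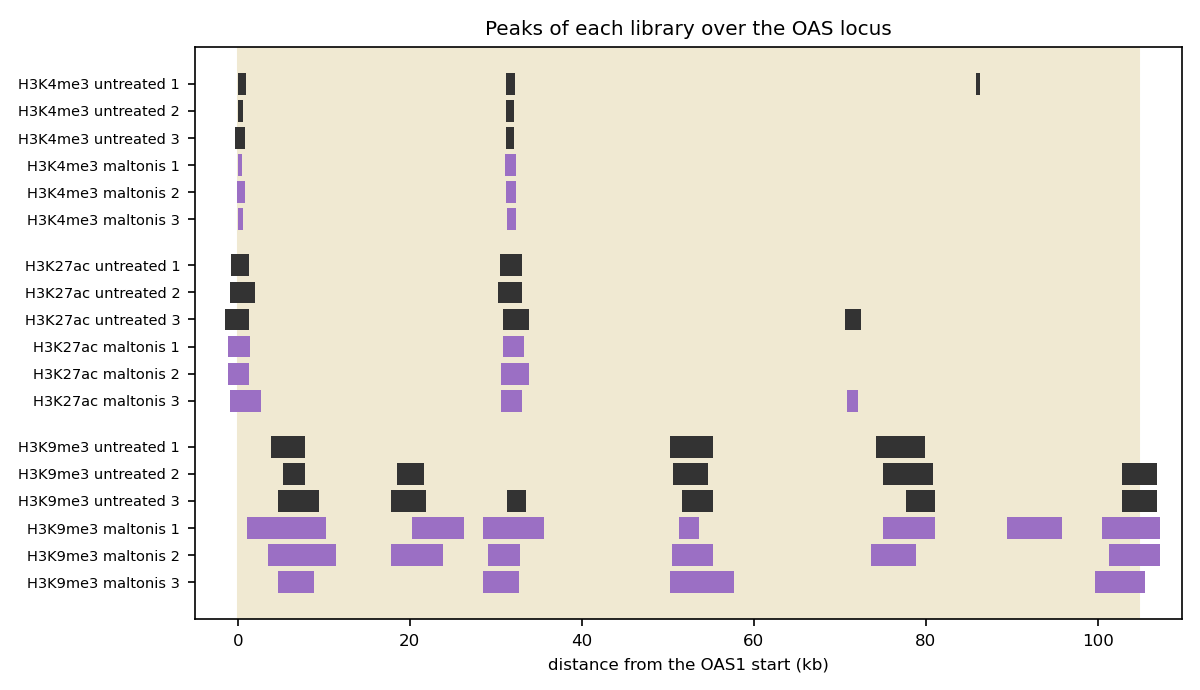
Peaks of each of the 18 libraries over the OAS locus (bars, 1 row per library, untreated in black, maltonis-treated in lilac) by distance from the OAS1 start in kb, with the stretch given for the locus shaded. H3K4me3 and H3K27ac sit at the OAS1 start and near 32 kb, and H3K9me3 covers more of the locus in treated replicates 1 and 2 than in the other libraries.

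Over whole windows the bases under H3K4me3 peaks were higher in every treated library at 4 of 6 loci, ISG15, IFI6, IFIT and MX1. At ISG15, IFI6 and MX1 each library had 1 H3K4me3 peak in the window, so these values repeat the region widths. Of all single H3K4me3 regions 54.8% were wider in every treated library. In the IFIT window the bases under H3K4me3 peaks were 4206, 4263 and 6172 bp in untreated and 6527, 6777 and 6438 bp in treated libraries. The OAS groups overlapped and the IFI44L to IFI44 window had none. The groups of H3K27ac overlapped in all 5 windows with peaks, and those of H3K9me3 stood apart only at IFI44L to IFI44. With 3 libraries per condition the exact two-sided permutation test cannot go below p = 0.1, and the windows that stood apart had p = 0.1, or 0.36 after adjustment over 18 tests. In the OAS window H3K9me3 covered 14600, 19600 and 22000 bp in untreated and 44000, 33800 and 21600 bp in treated libraries, with a wide spread among the treated ones (exact permutation p = 0.2).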

How the data were processed

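ChIP-seq peak lists of 18 NB4 libraries were used, 1 list per library, with groups and replicate numbers from the sample titles. The members and lists were chosen with earlier results of these data known. The submitters' processing notes name BWA, SAMtools, MACS2, SICER and hg19, and the study's methods name MACS2 for H3K4me3 and epic2 for the other marks. Versions and settings are not given in the sources used here. The H3K4me3 lists deposited by the authors hold a fold enrichment, a −log10 p and a −log10 q per peak. Those of H3K27ac and H3K9me3 hold a deposited read count and an island score per peak, made of 200 bp windows and not normalized by the authors.

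For each mark, overlapping peaks of the 6 libraries were merged (at least 1 bp). Over the regions called in all 6, limma 3.58.1 (trend and robust settings) was fitted to the log2 highest fold enrichment, centred on the library median, and to the log2 width. edgeR 4.0.16 (quasi-likelihood, TMM) was fitted to counts summed per region. Adjusted p-values are Benjamini-Hochberg values over all regions, and the limits (0.01 and a log2 fold change of 0.58) are those of the study. The scripts were tested on simulated data. DESeq2 1.42.0, no TMM, length offsets, other filters, merging, flanks and leaving out each library were alternatives. Named regions cover the 5' end of a locus or were called in at least 2 of 3 libraries of a condition; others are named to account for all regions, after their values were seen. Promoter sequences are RefSeq's (GRCh38.p14) and were matched by symbol. No genome coordinates were converted. Because peaks are called at a limit, the counts omit reads outside called peaks, and the p-values measure the spread between these samples.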

Additional observations from a re-analysis of the deposited data

How the results depend on the processing

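The number of H3K27ac regions called higher, 6 of 12 at first, was 3 after adding the called length as an offset and 2 when scaling factors were also computed on reads per base, an alternative chosen after seeing the data. Of all 20018 regions 1637 were called higher at first, 1178 with the length offset and 436 when scaled on reads per base. With no fold limit and an adjusted p of at most 0.05 the number in the windows was 10, with 1 lower, and DESeq2 called 1 lower. Leaving out 1 library at a time gave 5 to 7 higher and 0 to 1 lower. H3K4me3 width gave 2 regions at first, 0 when centred on the library median, 0 with a −log10 q of at least 10, where only 4 regions were tested and neither of the 2 was among them, 7 with no fold limit and 1 to 3 without 1 library. Of all 12470 regions 473 were called wider at first and 89 when centred. H3K4me3 fold enrichment gave 5 higher and 1 lower with no fold limit and 0 in each direction without any 1 library, and H3K9me3 reads gave 0 in every alternative run. The values showed no pairing of samples by replicate number, with correlations of deviations from -0.03 to 0.03. Whether samples of the same number were handled together is not given. With a replicate block the width count was 0, where 17 of all 12470 regions were called wider, and the windows with lower H3K9me3 cover were 2.

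Windows with higher H3K4me3 cover were 4 at first, 1 without flanks and 2 with 10 kb flanks, and 4 without any 1 library. For H3K27ac cover 1 window was higher without flanks, 1 with 10 kb flanks and 1 with the strongest 75% of peaks, and 0 to 1 were higher and 0 to 1 lower without 1 library. For H3K9me3 cover 1 window was higher without flanks, 1 with the strongest 75% and 1 with a common lowest strength, the lower one was then 0 and 0, and without 1 library 0 to 1 were higher and 1 to 2 lower. The difference of ISG15 H3K4me3 cover became -73 bp with 10 kb flanks. With a common lowest strength, for H3K4me3 a −log10 q of at least 10, that of IFI6 was 0 bp and that of OAS 204 bp. The IFI6 peaks, at 3.94 to 8.14, and the OAS1 peaks, at 4.16 to 8.91, lay under that limit. IFI6 was then left with no peak, and the OAS value was that of the OAS3 position. The causes of the other shifts were not tested. The H3K9me3 counts, at most 134 reads per region and library, limit what could be seen of that mark.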
